A study of Mus musculus with 6 samples.

Results

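The genes described here encode the machinery that carries proteins into mitochondria. They are the rows of the count table whose NCBI gene number maps to a mouse protein-coding symbol made of Timm or Tomm and a number, together with 3 motor genes (Pam16, Grpel1 and Hspa9), the motor cofactor genes Dnajc19 and Dnajc15, the outer membrane assembly genes Samm50, Mtx1 and Mtx2, the relay gene Chchd4 and the peptidase genes Pmpca and Pmpcb. The rule found 36 genes in a table of 24885 rows. It used no measured value, but the genes were chosen with earlier results of these data known. Of the 36, 33 had enough counts to be tested. The other 3, named below, were too low.

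The series holds poly(A)-primed 3' RNA-seq of mouse Eµ-Myc lymphoma cells, tumour cells from mice in which an immunoglobulin heavy chain enhancer drives the oncogene Myc in the B lineage. All 6 libraries, the controls too, come from Eµ-Myc cells with Cre-ERT2, a Cre recombinase activated by 4-hydroxytamoxifen (4-OHT), and with the genotype fl/fl (both alleles floxed) for miR-17~92, a cluster of microRNA genes. The 3 fl libraries are labelled floxed. The 3 del libraries are labelled del17-92 and come from cells kept in 250 nM 4-OHT for 4 days and then subcloned. Both groups were grown on irradiated Ink4a-null MEF feeder cells for 48 hours before RNA was taken. Deletion, drug treatment and subcloning cannot be told apart, because all of them apply to the del cells alone. The groups also differ in cell type markers, given below, and this difference cannot be separated from the label either. Whether the 3 libraries within a group are separate cultures or clones is not in the labels. The p-values therefore rest on a spread between samples that may be technical only.

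Most mitochondrial proteins are made in the cytosol and imported. The TOM complex of the outer membrane is the common entry gate, with Tomm20, Tomm22 and Tomm70a as receptors and Tomm40 as the pore. From there the SAM complex inserts barrel proteins into the outer membrane, the Chchd4 relay folds small proteins in the space between the membranes, the small TIM chaperones carry hydrophobic proteins to the TIM22 complex, and the TIM23 channel with its PAM motor draws proteins with a presequence into the matrix. The processing peptidase MPP then removes the presequence. Fast-growing cells such as lymphoma cells depend on this route to build mitochondria, and Myc is known to raise the expression of many nuclear genes for mitochondrial proteins.

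The libraries differed in depth and in cell type markers, as well as in the label. Total counts were 6554423 to 9580630 in fl and 2121796 to 3738720 in del, a mean depth 2.65 times as high in fl. Summed levels of 18 B cell markers were 52.6 to 60.5 CPM (counts relative to the library size, which was adjusted by TMM factors) in fl and 1348 to 1539 CPM in del, with no count of Igll1 or Rag1 in fl. B cell markers, which define the labelled cell type, were thus near absent from the fl libraries. Whether the fl libraries hold the labelled cells was not tested. Summed levels of 9 myeloid markers were 428 to 473 CPM in fl and 3040 to 3853 CPM in del. Fcer1g alone gave 370.6 to 421.5 CPM of the fl sum, and the next marker, Cd68, had a mean of 22.45 CPM in fl. Summed levels of 6 epithelial markers were 371 to 411 CPM in fl and 0.474 to 1.32 CPM in del. The fl sum was mostly Epcam (mean 169.9 CPM) and Krt18 (mean 213.9 CPM), with no count of Cdh1 in either group. Summed levels of 11 markers of fibroblasts, the type of the feeder cells, were 1.61 to 8.06 CPM in fl and 13.7 to 33.2 CPM in del, with no count of Lum in either group. Summed levels of 8 T and NK cell markers were 38.6 to 42.7 CPM in fl and 99.5 to 121 CPM in del. Cd2 alone gave 95.2 to 115 CPM of the del sum, with no count of Cd3e, Cd3g, Lck or Nkg7 in del. All 14 tested B cell markers, 7 of 8 myeloid and 2 of 3 fibroblast markers were higher in del, 3 of 3 epithelial markers were lower, and of 3 T and NK cell markers 1 was higher and 2 lower. The part of these differences in the results below was not tested. In bulk RNA, fewer cells of a type and less RNA per cell cannot be told apart.

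Import genes were lower in del in nearly every branch of the pathway. Of the 33 tested, 29 were lower in del, 1 was higher and 3 did not pass the threshold (edgeR's quasi-likelihood test, Benjamini-Hochberg adjusted p under 0.05 over 10260 genes). Across all genes tested 65.1% passed, with 32.6% lower and 32.5% higher, so a call by itself is common in this comparison. The lower share among import genes was 87.9%. Their median log2 fold change (del minus fl) was -0.94, a level of 52.2% of that in fl, where the median of all genes tested was 0.00. For 30 of the 33 every del library was below every fl library, which held for 35.7% of all genes tested. A fall of at least 2-fold was called for 14 of the 33, against 15.9% of all genes tested.

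The summed level of the 36 genes was 6316, 6192 and 6304 CPM across fl and 3076, 3093 and 3121 CPM across del. The groups were far apart and the libraries within each group were close, with 6271 ± 68.5 CPM in fl and 3097 ± 22.7 CPM in del (SD, n = 3 libraries each). The del sum was 49.4% of the fl sum. Tomm20 alone gave a large part of it, and without Tomm20 the sums were 4810 ± 31.6 CPM and 2620 ± 7.63 CPM (SD, n = 3 libraries each), or 54.5% of the fl level.

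**Figure D1:**
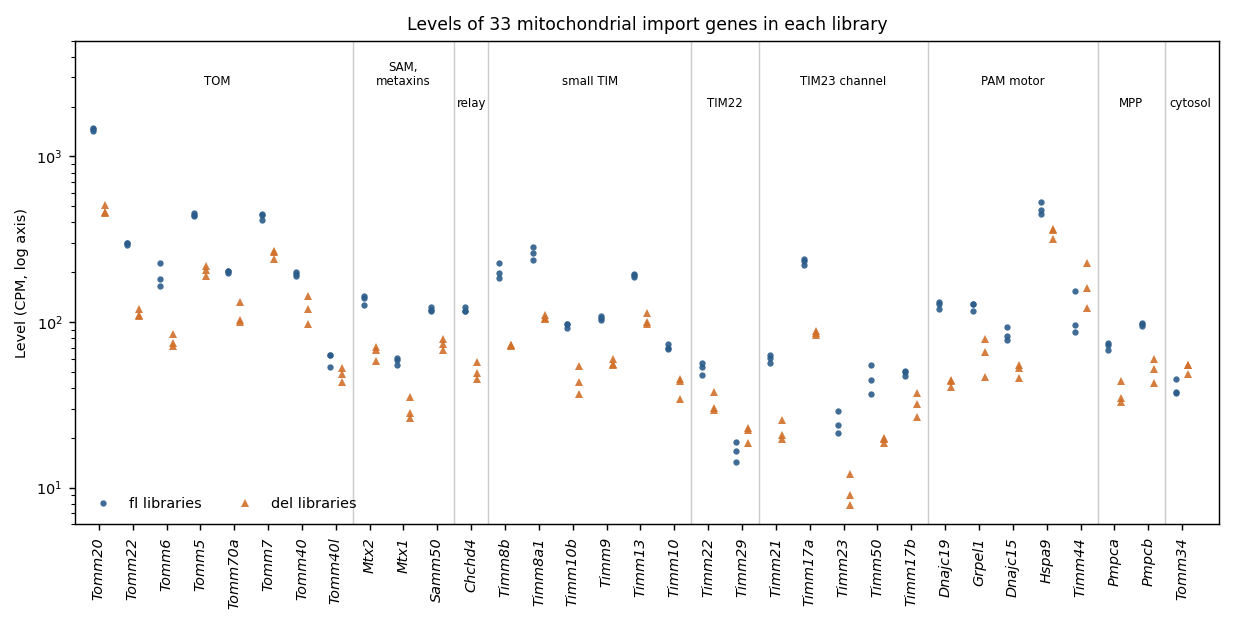
Level of each of the 33 tested import genes in each library, in CPM on a log axis. Circles are the 3 fl libraries and triangles the 3 del libraries, and vertical lines separate the roles. The del triangles lie below the fl circles for 30 genes. The exceptions are Timm29 and Timm44, whose groups overlap, and Tomm34, whose del libraries are above its fl libraries.

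The promoters of 4 of these genes are shown because they span the range of responses. They are Tomm20, Tomm22 and Timm8b, among the genes with the largest falls of their roles, and Timm44, which had the highest fold change of the set without passing the threshold. Each sequence runs from 250 bases before the gene's start to 50 after it, 5′ to 3′ on the gene's strand, from RefSeq on GRCm38.p6, the assembly that mm10 represents. Capitals mark matches, on either strand, to CACGTG (the E-box that Myc and its partner Max can bind), CCGGAAG (ETS-type) or CCAAT (NF-Y-type). Tomm20 lies on the minus strand of chromosome 8 (126930664 to 126945921), and its window is chr8:126945872-126946171. Tomm22 lies on the plus strand of chromosome 15 (79670868 to 79672862), with the window chr15:79670618-79670917. Timm8b lies on the plus strand of chromosome 9 (50603901 to 50605320), with the window chr9:50603651-50603950. Timm44 lies on the minus strand of chromosome 8 (4259731 to 4275905), with the window chr8:4275856-4276155.
Tomm20: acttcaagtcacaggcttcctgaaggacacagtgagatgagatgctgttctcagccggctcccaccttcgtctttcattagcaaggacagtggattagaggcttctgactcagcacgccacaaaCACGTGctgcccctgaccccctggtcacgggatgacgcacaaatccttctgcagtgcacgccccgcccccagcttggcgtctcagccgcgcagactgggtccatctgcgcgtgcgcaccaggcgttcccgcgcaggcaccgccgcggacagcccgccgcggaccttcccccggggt
Tomm22: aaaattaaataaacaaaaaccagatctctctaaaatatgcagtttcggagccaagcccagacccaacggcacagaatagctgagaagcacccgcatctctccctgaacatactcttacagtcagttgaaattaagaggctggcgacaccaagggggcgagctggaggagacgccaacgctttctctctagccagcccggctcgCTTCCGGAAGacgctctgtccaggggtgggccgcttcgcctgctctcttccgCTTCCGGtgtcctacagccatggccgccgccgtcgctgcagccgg
Timm8b: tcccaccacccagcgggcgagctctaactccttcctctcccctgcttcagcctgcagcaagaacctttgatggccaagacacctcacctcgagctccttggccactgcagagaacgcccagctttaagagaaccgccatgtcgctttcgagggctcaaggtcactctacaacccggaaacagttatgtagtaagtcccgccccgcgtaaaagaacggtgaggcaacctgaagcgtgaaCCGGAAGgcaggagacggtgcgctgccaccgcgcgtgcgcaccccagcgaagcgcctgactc
Timm44: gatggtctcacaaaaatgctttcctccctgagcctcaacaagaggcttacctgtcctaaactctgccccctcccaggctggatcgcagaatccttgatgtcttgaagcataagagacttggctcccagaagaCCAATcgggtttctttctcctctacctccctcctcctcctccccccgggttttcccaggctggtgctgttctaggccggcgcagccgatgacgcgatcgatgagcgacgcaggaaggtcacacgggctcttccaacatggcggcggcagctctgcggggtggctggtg

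The Tomm20 window holds 1 E-box, 126 bases before the start, and no ETS-type match. The Tomm22 window holds 3 ETS-type matches, of which those 47 and 44 bases before the start overlap on opposite strands, and the other lies 6 bases into the gene. The Timm8b window has its ETS-type match 12 bases before the start, and the Timm44 window a CCAAT match 118 bases before it. Of the 36 genes, 32 had a promoter entry in the table (Tomm7, Tomm40l, Timm21 and Hspa9 did not). The ETS-type letters were found in 14 of the 32 (43.8%), against 8.86% of all 32851 promoters and 22.7% of the 8313 tested genes with an entry. The E-box was found in 5 (15.6%), namely Tomm20, Tomm20l, Timm8a1, Timm9 and Timm10, against 7.15% of all promoters and 12.4% of tested genes. CCAAT was found in 10 (31.2%, against 37.4% and 43.5%). The NRF1-type palindrome, formed by GCGCA and its reverse complement, was found in 0 of 32, against 0.971% of all promoters and 2.61% of tested genes. Only this exact palindrome was searched, so other forms of the site were missed. A form that differs by 1 letter, GCGCGTGCGC, is in the Tomm20 and Timm8b windows above, where it is not marked. How often such forms occur in other promoters was not computed.

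Median fold changes with and without a match lay close to each other. The tested import genes with an ETS-type match had a median log2 fold change of -0.96 (13 genes) and those without one -1.0 (16 genes). With an E-box the median was -1.09 (4 genes) and without one -0.96 (25 genes). A match describes the letters only, and no match says only that these letters are not in this window.

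Among the TOM genes, 7 of 8 tested were lower in del, with a median log2 fold change of -0.99. Tomm20, the receptor that recognises presequences, was at 1490, 1418 and 1474 CPM across fl and 456, 465 and 509 CPM across del. Its fold change was the lowest of all 33 genes, -1.61 ± 0.13 (standard error) on the log2 scale (adjusted p = 7.67e-06), or 32.6% of the fl level. Tomm22, the central receptor that holds the complex together, was at 290, 302 and 302 CPM in fl and 119, 109 and 111 CPM in del. Its libraries were tightly grouped and well apart, with a log2 fold change of -1.40 ± 0.13 (adjusted p = 1.87e-05).

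The small TOM subunits, which stabilise the complex around the pore, were all lower. Tomm6 had a log2 fold change of -1.31 ± 0.16, Tomm5 of -1.12 ± 0.13 and Tomm7 of -0.75 ± 0.13. Tomm70a, the receptor for carrier precursors, was at -0.85 ± 0.15. Tomm40, the pore itself, was at 189, 200.2 and 194 CPM in fl and 98.0, 119.9 and 144 CPM in del. The Tomm40 groups did not overlap, and the fold change of -0.69 ± 0.16 was the smallest of the 7 that passed. Tomm40l, a second form of the pore protein, was at 63.1, 53.8 and 62.9 CPM in fl and 52.7, 48.3 and 43.3 CPM in del. Every del library was lower, but the difference missed the threshold (log2 fold change -0.32 ± 0.14, adjusted p = 0.0719). Tomm20l, a relative of Tomm20, had 2 counts in 1 fl library and 0 in the other 5 libraries and was not tested.

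Tomm34 bears the family's name but encodes a cytosolic cochaperone rather than a part of the gate. It was at 37.1, 38.0 and 45.5 CPM in fl and 48.5, 55.4 and 55.1 CPM in del. Tomm34 was the 1 gene of the set that was higher in del, by 0.40 ± 0.14 on the log2 scale (adjusted p = 0.0322). The call was lost in 7 of 14 alternatives, as given in the closing section.

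**Figure D2:**
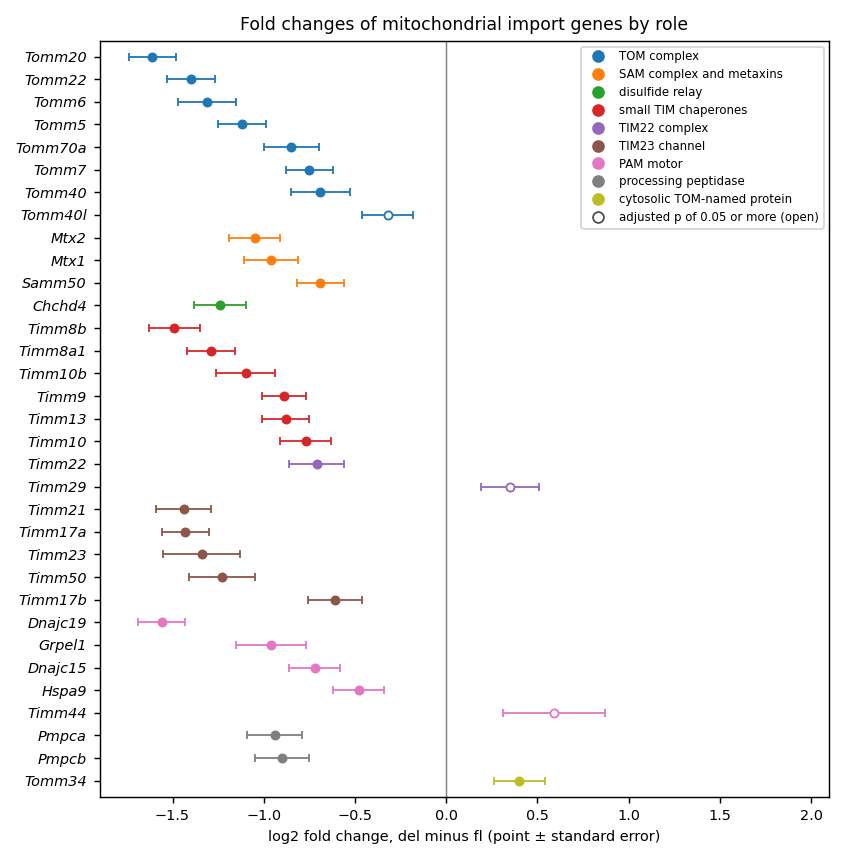
Log2 fold change (del minus fl, horizontal axis) of each tested import gene, with its standard error as a bar, coloured by role. Filled points passed the threshold and open points did not. All filled points but Tomm34 (0.40) lie to the left of 0, between -1.61 for Tomm20 and -0.48 for Hspa9.

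Outer membrane assembly and the relay were lower as well. Samm50, the core of the SAM complex, had a log2 fold change of -0.69 ± 0.13. The metaxin genes Mtx1 and Mtx2, whose products sit beside Samm50 on the cytosolic face, were at -0.96 ± 0.15 and -1.05 ± 0.14. Mtx1 missed the threshold (-0.36, adjusted p = 0.0671) after correction for a trend on length and GC content, described below. Mtx2, which had the smallest adjusted p of the 3 (0.000164), was at 144, 126 and 140 CPM in fl and 71.1, 68.2 and 58.1 CPM in del. Chchd4, the oxidoreductase that traps small cysteine-rich proteins in the intermembrane space, was at 117, 117 and 123 CPM in fl and 49.0, 45.5 and 57.0 CPM in del. The Chchd4 groups were well apart (log2 fold change -1.24 ± 0.14, adjusted p = 5.68e-05).

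All 6 tested small TIM genes were lower in del, with a median log2 fold change of -0.99. These chaperones shield hydrophobic proteins on their way across the intermembrane space. Timm8b was at 226, 199 and 185 CPM across fl and 73.2, 72.0 and 72.5 CPM across del. The del values were nearly the same in the 3 libraries, and the fold change was -1.49 ± 0.14 on the log2 scale (adjusted p = 1.94e-05). Timm8a1, which encodes another partner of Timm13, was at -1.29 ± 0.13, Timm10b at -1.10 ± 0.16, Timm9 at -0.89 ± 0.12, Timm13 at -0.88 ± 0.13 and Timm10 at -0.77 ± 0.14. Timm9 and Timm10 encode the partners of the main hexamer. After correction for a trend on length and GC content, Timm10 was at -0.13 (adjusted p = 0.467) and Timm13 at -0.18 (adjusted p = 0.251), so that 4 of the 6 passed. Timm8a2 had 1 count in fl and 1 in del and was not tested.

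The TIM22 complex, which inserts carrier proteins into the inner membrane, was covered by 2 genes. Timm22, its channel, was at 56.4, 47.9 and 53.5 CPM in fl and 30.3, 37.9 and 29.5 CPM in del, without overlap (log2 fold change -0.71 ± 0.15, adjusted p = 0.00254). Timm29, a subunit that links it to the outer gate, was at 14.3, 16.7 and 18.9 CPM in fl and 22.9, 22.3 and 18.7 CPM in del. The Timm29 groups overlapped and the test was not passed (log2 fold change 0.35 ± 0.16, adjusted p = 0.085). In libraries thinned to the same total its fold change was -0.04, so its direction is not fixed by these data.

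All 5 TIM23 genes were lower, with the lowest median of the roles with more than 1 gene (-1.34). Timm17a, a stress-sensitive subunit of the channel, was at 233, 220.2 and 242 CPM in fl and 88.0, 83.4 and 86.5 CPM in del. The fl and del libraries did not come near each other (log2 fold change -1.43 ± 0.13, adjusted p = 1.55e-05). Timm21, which steers the channel towards TOM and the respiratory chain, had a log2 fold change of -1.44 ± 0.15, Timm23, the channel protein, of -1.34 ± 0.21, and Timm50, the receptor, of -1.23 ± 0.18. Timm17b, the alternative form of Timm17a, was at 50.3, 49.7 and 47.1 CPM in fl and 37.4, 32.2 and 26.8 CPM in del. Its fold change of -0.61 ± 0.15 was the smallest of the 5, and after the same correction it was -0.39 (adjusted p = 0.0504).

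The PAM motor genes moved less evenly, with 4 of 5 tested lower and a median of -0.72. Dnajc19, a J-protein that stimulates the motor chaperone, was at 132, 128 and 120 CPM in fl and 40.3, 44.1 and 44.6 CPM in del. Its log2 fold change of -1.56 ± 0.13 (adjusted p = 1.13e-05) was next to that of Tomm20 at the low end of the set. Grpel1, the nucleotide exchange factor, was at -0.96 ± 0.19 and Dnajc15, a relative of Dnajc19, at -0.72 ± 0.14. Hspa9, the mitochondrial Hsp70 that drives the motor, was at 447, 474 and 529 CPM in fl and 360, 316 and 364 CPM in del. Hspa9 had the smallest fall that passed (log2 fold change -0.48 ± 0.14, adjusted p = 0.0134). Without fl replicate 3 it was -0.41 (adjusted p = 0.0529).

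Timm44, which tethers Hspa9 to the channel, went against the rest of the motor. It was at 153.6, 95.8 and 86.7 CPM in fl and 120.9, 228 and 160 CPM in del. The groups overlapped, the spread was wide in both, and the test was not passed (log2 fold change 0.59 ± 0.28, adjusted p = 0.0891). Single libraries decided this, since Timm44 passed as higher without fl replicate 1 (log2 fold change 0.88, adjusted p = 0.0124) and without del replicate 1 (0.78, adjusted p = 0.0411). Pam16, a J-like partner of the motor, had 24, 16 and 14 counts in fl and 2, 2 and 4 counts in del and was too low to be tested. Pmpca, a subunit of MPP, was at 68.2, 74.6 and 72.6 CPM in fl and 44.2, 32.7 and 34.9 CPM in del. The Pmpca groups did not overlap (log2 fold change -0.94 ± 0.15, adjusted p = 0.000477), and Pmpcb, the other subunit, was also lower (-0.90 ± 0.15).

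Several import proteins exist in related forms, and the balance between them was read as a ratio of counts within each library, which does not depend on the scaling between libraries. Of 8 pairs, 3 had ratios that did not overlap between the groups. How often this holds for other pairs of genes was not computed. Of the 10260 genes tested, 3659 had every del library below every fl library and 3512 every del library above. Separate ratios are therefore not read as a trait of these pairs. The ratio of Timm17a to Timm17b was 4.62, 4.43 and 5.13 in fl and 2.35, 2.58 and 3.22 in del, a log2 difference of -0.81. The balance in del lay closer to Timm17b. The ratio of Dnajc15 to Dnajc19 was 0.709, 0.61 and 0.689 in fl and 1.37, 1.19 and 1.04 in del (log2 difference 0.84). Dnajc15 had fewer counts than Dnajc19 in every fl library and more in every del library. Their longest transcripts differ in length (6193 and 2499 nucleotides). After the correction for length and GC content their log2 fold changes were close to each other, at -1.51 and -1.60. Those of Timm17a and Timm17b were -2.37 and -0.39 after it. The ratios themselves were not corrected. The ratio of Grpel1 to Grpel2, a second exchange factor that is not one of the 36 genes, was 4.03, 4.12 and 4.37 in fl and 2.28, 2.53 and 1.28 in del (log2 difference -1.10). The mean level of Grpel2 itself was 29.8 ± 1.33 CPM over the fl libraries and 32.4 ± 5.59 CPM over the del libraries (SD, n = 3 each) and did not pass the threshold (log2 fold change 0.14 ± 0.15, adjusted p = 0.451).

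Each of these 3 pairs had a two-sided exact permutation p of 0.10, the smallest that 3 against 3 libraries allow, and 0.27 after Benjamini-Hochberg adjustment over the 8 pairs, so no pair could pass. The other 5 pairs overlapped. Their log2 differences were -0.39 for Tomm40 to Tomm40l, 0.31 for Timm10 to Timm10b, 0.19 for Timm8a1 to Timm8b, 0.09 for Mtx1 to Mtx2 and -0.04 for Pmpca to Pmpcb (exact permutation p 0.30 to 0.80). Counts of 2 genes in 3' libraries can differ for reasons of priming and length, so a ratio does not rank the genes. Fold changes between the groups also went with length, as given below, and the part of length in the shifts of the ratios was not tested.

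**Figure D3:**
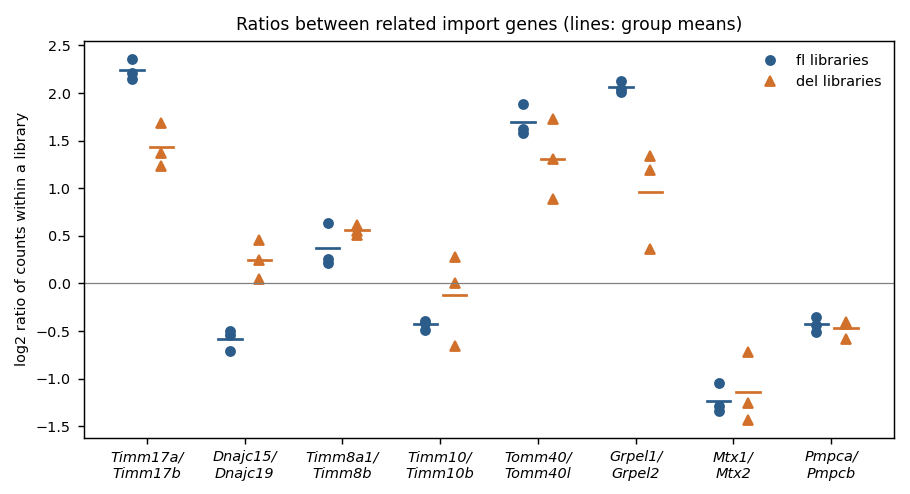
Log2 ratio of the counts of 2 related genes within a library (vertical axis) for 8 pairs. Circles are fl libraries, triangles del libraries and short lines the group means. The groups are apart for Timm17a/Timm17b, Dnajc15/Dnajc19 and Grpel1/Grpel2 and overlap for the other 5 pairs.

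Fold changes in this comparison went with transcript length, and many import genes are short. Genes tested were split into 5 equal bins by their longest annotated transcript, which need not be the one expressed. The bin of shortest genes had a median log2 fold change of -0.67 over all genes and of -1.23 over 11 import genes, all 11 of which were lower. In the next 3 bins the medians of all genes and of import genes were -0.25 and -0.71 (7 import genes), -0.05 and -0.95 (8), and 0.32 and -0.80 (4). In the bin of the longest transcripts the median was 0.80 over all genes and -0.85 over 3 import genes, all 3 lower. The median of the import genes was below that of all genes in each bin, while Tomm34, Timm44 and Timm29 were each above the median of all genes in their own bin.

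With a trend on length and GC content removed, 26 of the 33 were lower, against 33% of all genes, and the median was -0.93. The long genes moved away from 0 and some short ones towards it. Timm17a had a log2 fold change of -2.37 and Tomm20 of -2.16 after this correction, while Timm8b was at -0.93. The calls of Mtx1, Timm17b, Timm10 and Timm13 were lost, as given above. Tomm40l became lower (-0.68, adjusted p = 0.00215) and Timm44 higher (0.78, adjusted p = 0.0355).

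**Figure D4:**
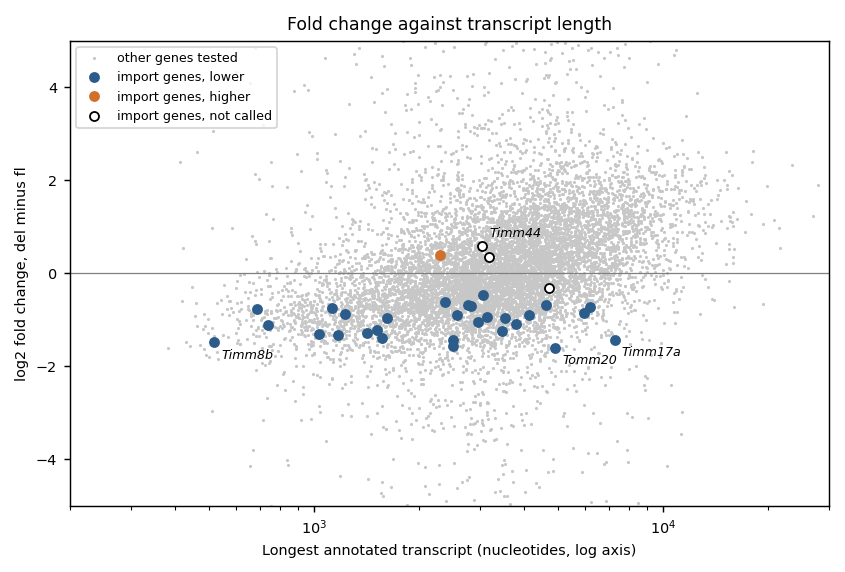
Log2 fold change (del minus fl) against the longest annotated transcript in nucleotides (log axis) for genes tested. Grey points are other genes and large points the import genes, filled where they passed the threshold. Of 10010 genes with a length, 387 lie outside the range drawn. Grey points shift upwards with length while the import genes stay mostly below 0, from Timm8b at the short end to Tomm20 and Timm17a at the long end.

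Seed sites of the cluster's microRNAs were looked for in the import genes because the labels give the del cells as deleted for the cluster. The loss of the cluster was not checked here, and the groups also differ in cell type markers. The mature forms of its 4 seed families, from RefSeq on GRCm38.p6, are shown with the seed (bases 2 to 8) in capitals. The miR-17 seed is shared by miR-20a, and the miR-19b seed by miR-19a.
mmu-miR-17-5p: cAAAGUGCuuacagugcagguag
mmu-miR-18a-5p: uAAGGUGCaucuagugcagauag
mmu-miR-19b-3p: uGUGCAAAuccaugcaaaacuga
mmu-miR-92a-3p: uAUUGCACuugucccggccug

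A 7-base match to at least 1 of these seeds was present in the longest annotated 3′ UTR of 10 of the 36 genes (27.8%), against 33.9% of 9839 tested genes. The median log2 fold change was -0.91 for the import genes with a site and -0.96 for those without. The miR-17/20a site was in 7 genes (Dnajc15, Grpel1, Pmpca, Timm17a, Tomm20, Tomm40l and Tomm7), the miR-18a site in 4, the miR-19a/b site in 4 and the miR-92a site in Timm29. Tomm20, the gene with the lowest fold change, held sites of 3 families. Timm29, with a fold change of 0.35, held a miR-92a site and a miR-19a/b site. These sites are shown with their flanks and with the site in capitals, for the gene with the lowest fold change and for the gene with the miR-92a site, which did not pass the threshold.
Tomm20 miR-17/20a site: cagtgactcaGCACTTTtgaaatgttc
Tomm20 miR-17/20a site, the other copy: agagtttccaGCACTTTctgaaatgac
Tomm20 miR-18a site: tcttccatatGCACCTTggcatttcaa
Tomm20 miR-19a/b site: gccaagtttgTTTGCACgaaggacaga
Timm29 miR-92a site: gctgtggatgGTGCAATtggtgagatg
Timm29 miR-19a/b site: actcctccgaTTTGCACtgtgacctac

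Of 51 tested genes in 4 related mitochondrial lists, 32 were lower in del (62.7%), 4 were higher and 15 did not pass the threshold, where 32.6% of all genes tested were lower and 32.5% higher. Their median log2 fold change was -0.66. The list of other import and insertion steps is broad, and not all of its genes, Mgrn1 for one, encode import proteins. Of its 20 genes, 13 were lower and 1 higher (median -0.69). Among them were Immp1l, a subunit of the inner membrane peptidase (-1.22 ± 0.14), Romo1, a small inner membrane protein (-1.38 ± 0.16), Timmdc1, a complex I assembly factor (-1.47 ± 0.19), and Dnlz, which keeps Hspa9 soluble (-1.07 ± 0.16). Xpnpep3, an aminopeptidase, was the 1 that was higher (1.02 ± 0.17).

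Of 12 genes of the cristae organising system and its partners, 8 were lower and 2 higher (median -0.69). Micos13 had the lowest fold change (-1.68 ± 0.13), followed by the prohibitin gene Phb (-1.61 ± 0.13), Stoml2 (-1.49 ± 0.15) and Phb2 (-1.32 ± 0.14). The 2 that were higher were Opa1 (0.72 ± 0.26) and Dnajc11 (0.69 ± 0.27). Of 9 protease genes 6 were lower and 0 higher (median -0.66), with Clpp (-1.51 ± 0.16), Lonp1 (-1.14 ± 0.13), Htra2 (-1.09 ± 0.14) and Clpx (-0.77 ± 0.16) among them. Of 10 genes of outer membrane channels and dynamics 5 were lower and 1 higher (median -0.49). The channel gene Vdac2 (-1.29 ± 0.16) and the fission adaptor gene Mff (-0.84 ± 0.13) were lower, as was Vdac3 (-0.85 ± 0.16), whereas the fission GTPase gene Dnm1l was higher (0.94 ± 0.15). The lists were not compared with the import genes by a test.

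Some import genes share sequence with other annotated genes, and the sources used here do not give how such reads were counted. The last 300 bases matched another gene at 95% identity or more over at least 150 bases for Timm23 (6 other genes, 5 of them pseudogenes), Tomm20 (2 pseudogenes), Timm17a, Dnajc19, Tomm6, Timm10b and the untested Pam16 (1 each). The levels of these genes are uncertain. The median log2 fold change was -1.39 over the 6 tested genes with such a match and -0.88 over the 27 without. These 6 include Tomm6, whose match, Gm21981, overlaps exons of Tomm6 itself on the same strand. Exons of 18 of the 36 genes overlap those of another annotated gene record, on the opposite strand for 16 and on the same strand for 4. The same-strand record at Timm10b, Gm45799, maps to the gene number of Timm10b itself. The libraries were strand-specific per the labels, but whether the counting used strand is not given.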

How the data were processed

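The 6 libraries (3 fl and 3 del) are 3' RNA-seq primed on poly(A) tails. The authors deposited 1 table of raw read counts per gene. STAR, HTSeq and mm10 are named in the submitters' processing notes, without versions or settings. Symbols came from the RefSeq gene table of GRCm38, which left 83 of 24052 gene numbers unmatched (0.204% to 1.03% of a library's counts).

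Counts were tested with edgeR 4.0.16 (R 4.3.3), with filterByExpr by group, TMM factors, the robust quasi-likelihood F test with group as the only term, and Benjamini-Hochberg adjustment over 10260 genes at a threshold of 0.05. CPM were computed from the deposited counts with TMM-scaled library sizes, and standard errors come from the F statistic. Ratios of related genes were log2 ratios of counts plus 0.5, compared by an exact permutation test. Replicates of a group were distinct libraries (chi-square per degree of freedom 7.36 to 31.6 over genes). On simulated counts of 10117 genes for del against fl, recovery was 9.21% at a true change of 1.5-fold, 71.4% at 2-fold and 98.4% at 4-fold, with false calls making up 3.54%. The simulation changed 200 genes, whereas 65.1% of genes tested passed in the data, so its recovery may not describe this comparison. In the data, Timm17b passed at a 1.53-fold fall and Timm44 did not pass at a 1.51-fold rise.

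The genes and lists were chosen with earlier results of these data known. Every import gene is accounted for, and those with the smallest adjusted p of a role or against its direction are given per library. Of each related list up to 4 genes are named by smallest adjusted p, together with any gene that was higher in del. Promoters and microRNAs are from RefSeq and 3′ UTRs from the GENCODE annotation of GRCm38. The alternatives were other normalizations, DESeq2 1.42.0, other filters (none, or at least 10 CPM in 3 libraries), libraries thinned to 2121796 counts, a replicate block, each library left out and a length and GC trend removed. Protein sequences were not used here.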

Additional observations from a re-analysis of the deposited data

How the results depend on the processing

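Over the 14 alternatives, 26 to 30 of the import genes were lower in del and 0 to 2 higher, and 24 of the 29 genes called lower passed in every alternative that tested them. Their median log2 fold change of -0.94 was -1.07 with upper-quartile factors, which also moved the median of all genes to -0.13, and -0.98 with no count filter. Leaving out 1 library gave -1.02 to -0.87. With the DESeq2 Wald test the median of all genes, taken with no filter, was 0.12, and 29 import genes were lower and 1 higher. In libraries thinned to the smallest total, 29 import genes were lower and 0 higher, while 4664 genes in all passed, against 6676. The replicate numbers gave no sign of pairing. Correlations of deviations were 0.083, -0.039 and -0.020 for like numbers and -0.145 to 0.167 for unlike ones. With 3 libraries in each group they cannot exclude pairing. With a replicate block 29 import genes were lower and 1 higher, with 6510 genes passing in all and a median of -0.95. A paired test of the ratios cannot go below an exact p of 0.25.

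Tomm34 missed the threshold with upper-quartile factors (0.27, adjusted p = 0.146), with no count filter (0.35, 0.074), in thinned libraries (0.40, 0.0857), without fl replicate 1 (0.34, 0.1) or 2 (0.36, 0.106) and without del replicate 2 (0.37, 0.0755) or 3 (0.36, 0.075). Tomm40l passed with upper-quartile factors (-0.44, 0.021). Timm29 was at -0.04 in thinned libraries. With 1 library left out, the log2 difference of Pmpca to Pmpcb ranged from -0.07 to 0.02 (0.01 without fl replicate 2) and that of Mtx1 to Mtx2 from -0.12 to 0.24. The cause of these changes was not tested. Pam16, Tomm20l and Timm8a2 had too few counts to be tested at this depth.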

Other observations

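Of the 36 import genes, 10 start within 1000 bases of a protein-coding gene that runs the other way, and 9 of these pairs had both genes tested. Of the 9 neighbours, 3 were lower in del, 3 higher and 3 did not pass the threshold, with a median log2 fold change of -0.03. This is near the split over all genes tested (32.6% lower and 32.5% higher, median 0.00). Timm8b starts 98 bases from Sdhd, a subunit gene of respiratory complex II, which was at 166, 191 and 211 CPM in fl and 121, 109.9 and 103 CPM in del. Both genes were lower, Sdhd by less (log2 fold change -0.76 ± 0.15). Timm10b starts 360 bases from Arfip2, and that gene also fell (-1.26 ± 0.15), as did Pqbp1 beside Timm17b (-0.43 ± 0.16).

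In 2 other pairs the genes differed in direction. Timm9 fell (-0.89 ± 0.12) and 2700049A03Rik, 164 bases away, rose (1.36 ± 0.29). Chchd4 fell (-1.24 ± 0.14) and Tmem43, 157 bases away, rose (0.51 ± 0.18, adjusted p = 0.0301). Stk4, a kinase gene 847 bases from Tomm34, was at 69.0, 64.0 and 76.5 CPM in fl and 237, 259 and 290 CPM in del, a larger rise (1.91 ± 0.15) than that of Tomm34 itself. Pmpca fell while Entr1, 23 bases away, was at 38.3, 34.1 and 36.4 CPM in fl and 31.9, 34.1 and 40.5 CPM in del, with the groups overlapping.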
